A study of Canis lupus familiaris with 16 samples.

Results

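Resident fibroblasts of the skin and of the vessel adventitia carry a recognizable set of transcripts, and 9 genes of that set are described here in canine soft tissue sarcomas: CLEC3B, DPT, CD34, PI16, SCARA5, CFD, C7, C3 and GSN. They were chosen by name, as genes of resting dermal and adventitial fibroblasts, from the 41818 genes counted, with earlier results of these data known. All 9 had at least 10 counts in at least 4 tumors, as did 15408 genes in all. The direction of CLEC3B in fibrosarcoma was known from the study when the genes were chosen, so its values in that tumor type are given as a description, with no test.

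RNA was sequenced from sections of 16 formalin-fixed, paraffin-embedded archived tumors of dogs, which were grouped by the molecular identity in the labels into 4 fibrosarcomas (FS, dogs aged 9 to 13 years), 6 peripheral nerve sheath tumors (PNST, 8 to 13 years) and 6 perivascular wall tumors (PWT, 2 to 14 years). No normal tissue was analysed here. The molecular identity differs from the histological diagnosis in 2 tumors, which the study reassigned from gene expression: S1-10, a PWT by histology, is counted as PNST, and S2-08, an FS by histology, as PWT. S1-04 and S1-05 have the same label entries and may come from 1 dog. Tumor names start with S1 (9 tumors, 3 sequencing runs each) or S2 (7 tumors, 1 run each), and S1 tumors made up 3 of 4 FS, 5 of 6 PNST and 1 of 6 PWT. Libraries were sequenced in separate groups according to the study's methods, and the prefix was treated as a possible batch, since which tumors made up each group is not given in the sources used here. Counts on genes totalled 507728 to 2781899 per tumor in FS, 1545839 to 4311876 in PNST and 726025 to 2234165 in PWT. The shallowest tumor was S1-12, an FS, in which 1 count equalled 1.64 CPM (the count scaled to the tumor's effective total, so that levels can be compared between tumors). Transcripts of mesenchymal cells were plentiful in every tumor (the summed level of VIM, DCN, LUM, SPARC and 6 other genes was 11832 to 115366 CPM). Schwann cell markers summed to 23.8 to 93.9 CPM in PNST (median 48.0), 20.1 to 92.7 in FS (median 40.4) and 12.4 to 40.0 in PWT (median 19.4). Pericyte and smooth muscle markers summed to 365 to 703 CPM in PWT against 587 to 1886 in FS. Keratinocyte markers summed to 23.9 to 1557 CPM in FS, 12.0 to 1554 in PNST and 10.1 to 1019 in PWT. Skeletal muscle markers summed to 7.02 to 1318 CPM in FS (highest in S1-11), 6.79 to 59.4 in PNST and 3.36 to 509 in PWT. The part of skin or muscle in the levels was not tested.

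In healthy connective tissue, resident fibroblasts keep up the collagen network, support vessels and epithelia, and can turn into collagen-producing activated fibroblasts after injury or next to a tumor. PI16 and CD34 mark adventitial and interstitial fibroblasts with progenitor features. CLEC3B and DPT encode secreted matrix-associated proteins, SCARA5 a scavenger receptor that binds ferritin, CFD, C7 and C3 components of complement, and GSN an actin-severing protein. Several of these genes are not private to fibroblasts: CD34 is also made by endothelial cells, CFD by adipocytes and C3 by macrophages. In sections of whole tumor, fewer cells of a type and less RNA per cell cannot be told apart.

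The data show 1 gene of the set that was far lower in every FS, CLEC3B, and 8 genes that were not called in any of the 6 comparisons between tumor types by the main test. In FS, CD34, CFD and C7 lay below the median of the other 12 tumors in 4 of 4 tumors, PI16 in 3, DPT, SCARA5 and GSN in 2 and C3 in 1. A gene was called differentially expressed where edgeR's quasi-likelihood test gave an adjusted p-value below 0.05 (Benjamini-Hochberg over all 15408 genes) and the log2 fold change exceeded 1 in size. Of those genes, 9.46% were called in FS against the rest, and 3.68% were called lower. Among the 9 genes, 1 was called, CLEC3B, which nothing is read from because its direction was known. Of the other 8 genes, 6 had a negative log2 fold change in FS, with a median of -0.98 against 0.0039 over all genes tested. With CLEC3B it was 7 of 9, with a median of -1.22. Because the 9 genes were chosen with earlier results of these data known, these counts and medians are a description. The log2 fold changes of the 9 genes were less precise than those of most genes, with a median standard error (SE) of 0.58 against 0.38 over all genes. The SE takes in counting error as well as spread between tumors.

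**Figure D1:**
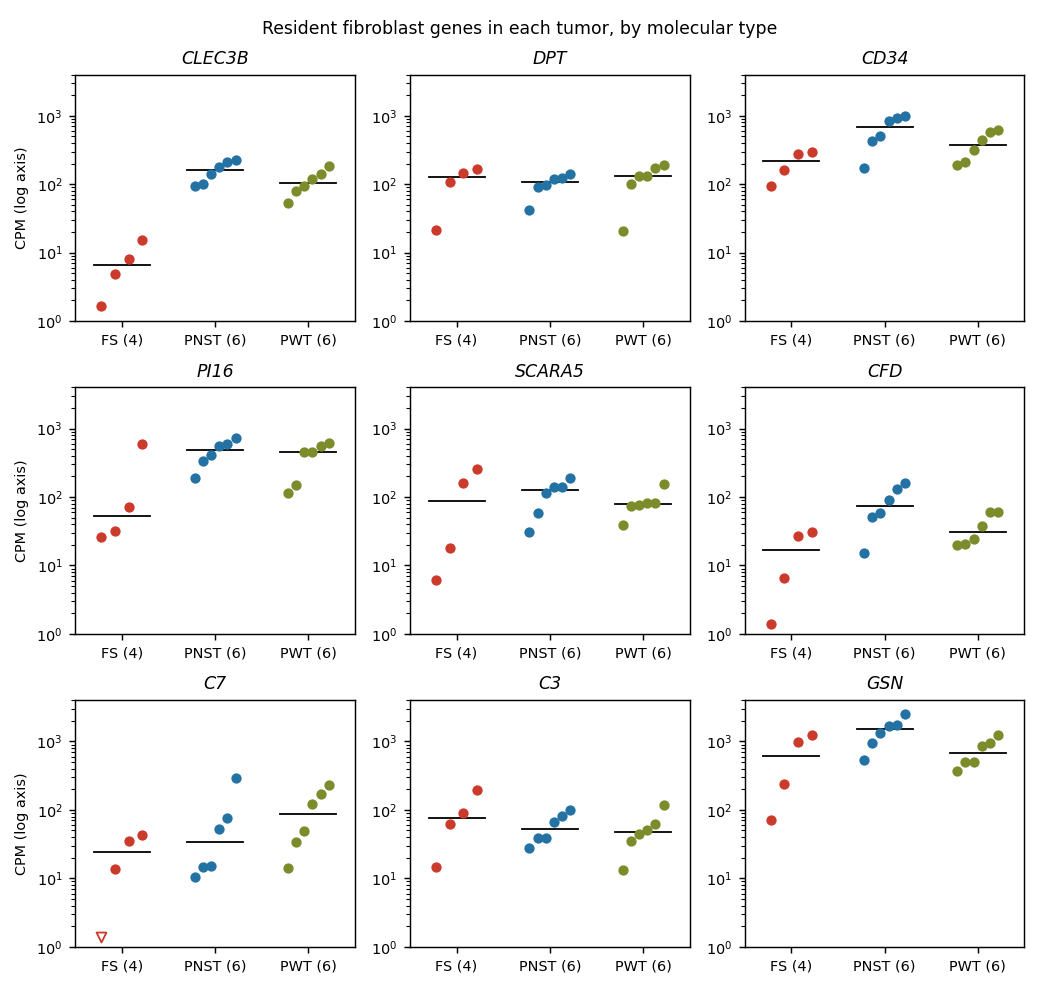
CPM of the 9 genes in each tumor (log axis), by molecular type, with the number of tumors in parentheses; points are tumors, lines are medians of the type, and the open triangle in the C7 panel is S2-06, which had 0 counts and is drawn at the level of 3 counts (1.40 CPM). CLEC3B in FS sits at 1.64 to 15.4 CPM, apart from the 52.3 to 229 CPM of the other 12 tumors, whereas the types overlap in each of the other 8 genes.

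CLEC3B encodes tetranectin, a plasminogen-binding lectin of the extracellular matrix. In the 4 FS its level was 8.18 CPM in S1-02 (23 counts), 4.91 in S1-11 (9 counts), 1.64 in S1-12 (1 count) and 15.4 in S2-06 (33 counts). In PNST it ran from 93.9 CPM (S1-09) over a median of 159 to 229 (S1-05), and in PWT from 52.3 (S2-03) over a median of 106 to 186 (S2-08). The 4 FS thus lay below all other tumors, and PNST and PWT overlapped. The single count of S1-12 allowed 0.0416 to 9.16 CPM (exact Poisson 95% interval, which covers counting error only, as do all such intervals here), still below the lowest tumor of the other types. Mean levels were 7.54 ± 5.90 CPM in FS (SD, n = 4), 158 ± 56.4 in PNST (n = 6) and 112 ± 47.1 in PWT (n = 6), and the log2 fold change of FS against the rest was -4.01 (SE 0.48). Over all genes, 1.82% had all 4 FS below the other 12 tumors, and 3.16% had FS apart in either direction.

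The size of the CLEC3B difference depended on the place of S2-08. That tumor had 186 CPM, and with the histological groups, in which it counts as FS, the log2 fold change was -1.54 (SE 0.71). Without S2-08 and S1-10 it was -3.96 (SE 0.50). It was -4.61 among S1 tumors and -2.99 among S2 tumors, which hold a single FS, S2-06. Outside FS, CLEC3B did not separate the types: PNST against PWT gave a log2 fold change of 0.40 (SE 0.35, 95% interval -0.28 to 1.08), and in this comparison 0.169% of all genes were called.

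DPT encodes dermatopontin, a small matrix protein that binds decorin and takes part in collagen fibril assembly. Its levels in FS were 164 CPM in S1-02, 147 in S1-11, 21.4 in S1-12 (13 counts) and 107 in S2-06. PNST ran from 42.3 CPM (S1-10) over 107 to 141 (S2-07) and PWT from 20.5 (S2-03) over 132 to 189 (S2-09). Each type had a single low tumor and otherwise lay near or above 90 CPM, so that the types overlapped almost completely. The log2 fold change of FS against the rest was -0.02 (SE 0.45, 95% interval -0.90 to 0.86), an interval that leaves room for a change of nearly the size the call required in either direction. CLEC3B and DPT, both genes of the fibroblast's matrix products, thus had different patterns over the same 4 FS.

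CD34 encodes a surface sialomucin. FS had 279 CPM in S1-02, 160 in S1-11, 93.8 in S1-12 and 291 in S2-06. PNST ran from 170 CPM (S1-03) over 674 to 998 (S1-09), and PWT from 191 (S2-11) over 374 to 623 (S1-07). All 4 FS were below the median of either other type, but they overlapped with the low tumors of both. The mean was 206 ± 95.4 CPM in FS (n = 4), 646 ± 328 in PNST (n = 6) and 392 ± 186 in PWT (n = 6). FS against the rest gave -1.30 (SE 0.47, edgeR adjusted p = 0.0850), FS against PNST -1.57 (SE 0.49, adjusted p = 0.0584) and FS against PWT -0.96 (SE 0.48, adjusted p = 0.195), so that the gene was not called, while 7.13% and 11.2% of all genes were called in the last 2 comparisons. DESeq2's Wald test, the tool of the study, called it in FS against the rest (log2 fold change -1.27, adjusted p = 0.0364). PNST against the rest gave 0.92 (SE 0.40, edgeR adjusted p = 0.288), in a comparison with 0% of genes called (2415 genes had an unadjusted p-value under 0.05). The summed level of 10 endothelial markers, from cells that also make CD34, was 247 to 537 CPM in FS, 183 to 725 in PNST and 170 to 526 in PWT, and its part in the CD34 levels was not tested.

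PI16 encodes peptidase inhibitor 16, a marker of adventitial fibroblasts. In FS it was 32.4 CPM in S1-02, 26.3 in S1-12 and 71.6 in S2-06, but 602 in S1-11 (1103 counts). PNST ran from 189 CPM (S1-09) over 484 to 739 (S1-05) and PWT from 115 (S2-03) over 451 to 613 (S2-09). In 3 of the 4 FS the level was thus below every tumor of the other types, and in the fourth it was among the higher ones. The log2 fold change of FS against the rest was -1.22 (SE 0.67, edgeR adjusted p = 0.267). Without S1-11 it was -3.26 (SE 0.59, edgeR adjusted p = 0.00435), and limma voom with all tumors called it as well (-2.14, SE 0.61, adjusted p = 0.0325). S1-11 had the most PI16 of the 4 FS and yet 4.91 CPM of CLEC3B.

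SCARA5 was highest of all 16 tumors in S1-02 (258 CPM) and lowest of all in S2-06 (6.08 CPM, 13 counts), with 158 CPM in S1-11 and 18.1 in S1-12 between them. PNST ran from 30.8 CPM (S2-07) over 127 to 192 (S1-04) and PWT from 38.5 (S2-11) over 78.5 to 153 (S2-03). The FS spanned the whole range of the other types and passed it at both ends. The log2 fold change of FS against the rest was 0.19 (SE 0.60, edgeR adjusted p = 0.887), but it was -0.64 without S1-02, -0.04 without S1-11 and -0.70 by limma voom (SE 0.70), none of them called. Among S2 tumors alone, with S2-06 as the only FS, it was -3.70 (SE 1.03, edgeR adjusted p = 0.131).

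**Figure D2:**
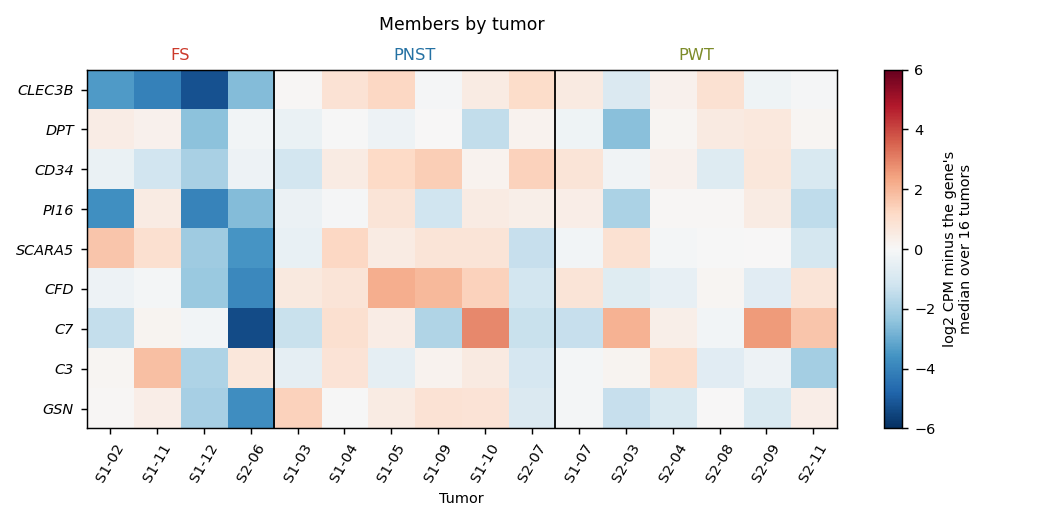
Log2 CPM of each gene in each tumor minus the gene's median over the 16 tumors (color, scale from -6 to 6), with tumors ordered by molecular type and vertical lines between types. CLEC3B is low in 4 of 4 FS, S1-12 is below the median in 9 of 9 genes and S2-06 in 8 of 9, and S1-11 is below it in 3.

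Of the 3 complement genes, CFD encodes factor D (adipsin), the protease that cleaves factor B in the alternative pathway. In FS it was 27.0 CPM in S1-02 (76 counts), 31.1 in S1-11 (57 counts), 6.58 in S1-12 (4 counts) and 1.40 in S2-06 (3 counts, exact Poisson 95% interval 0.289 to 4.10). PNST ran from 15.4 CPM (S2-07) over 74.6 to 158 (S1-05) and PWT from 20.2 (S2-03) over 30.8 to 59.6 (S2-11). S1-12 and S2-06 were below every tumor of the other types, whereas S1-02 and S1-11 lay inside the range of PWT. FS against the rest gave -1.79 (SE 0.67, edgeR adjusted p = 0.0974) and FS against PNST -2.22 (SE 0.68, adjusted p = 0.0526), neither called. With S1 or S2 entered as a covariate in edgeR, FS against the rest was called (-2.32, SE 0.51, adjusted p = 0.00760), and DESeq2 called it too (-1.78, adjusted p = 0.0411). Within S1 tumors the value was -1.92 (SE 0.51, edgeR adjusted p = 0.0511) and within S2 tumors, with a single FS, -4.35 (SE 1.03, adjusted p = 0.0942). PNST against the rest gave 1.45 (SE 0.52, edgeR adjusted p = 0.222) and turned to -0.94 (SE 1.22) within S2 tumors, where S2-07 was the only PNST. Adipocyte markers, from the other main source of CFD, summed to 65.8 to 151 CPM in FS, 54.1 to 336 in PNST and 43.0 to 486 in PWT, and their part in the CFD levels was not tested.

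C7 encodes a component of the membrane attack complex. FS had 13.5 CPM in S1-02, 43.1 in S1-11, 34.5 in S1-12 (21 counts) and 0 counts in S2-06, where 0 counts allow up to 1.40 CPM (3 counts of the total; the exact Poisson 95% interval reaches 1.73 CPM). PNST ran from 10.5 CPM (S1-09) over 34.1 to 292 (S1-10), and PWT from 14.2 (S1-07) over 86.1 to 229 (S2-09). Levels varied over more than 10-fold within both other types, and the FS other than S2-06 lay inside their range. The log2 fold change of FS against the rest was -1.99 (SE 1.00, edgeR adjusted p = 0.221), and without S2-06 it was -1.54 (SE 0.97, edgeR adjusted p = 0.356). PWT against the rest gave 1.01 (SE 0.81, edgeR adjusted p = 0.478), with 2.12% of all genes called in that comparison. That value was 1.93 without S1-10, 0.61 without S2-09, 2.36 with histological groups and 2.12 without S1-10 and S2-08, 2.71 with S1 or S2 as a covariate, 4.20 within S2 tumors and -2.20 within S1 tumors, where S1-07 is the only PWT, and it was called in none of them. In S1-10, histologically a PWT, C7 was 292 CPM against 10.5 to 76.6 in the other 5 PNST.

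C3 encodes the central component on which all complement pathways converge. In FS it was 61.2 CPM in S1-02, 197 in S1-11, 14.8 in S1-12 (9 counts) and 90.3 in S2-06. PNST ran from 27.4 CPM (S2-07) over 52.2 to 99.0 (S1-04) and PWT from 13.1 (S2-11) over 48.2 to 116 (S2-04). The highest of all tumors, S1-11, and the second lowest, S1-12, were both FS. FS against the rest gave 0.72 (SE 0.47, edgeR adjusted p = 0.368), which was 0.02 without S1-11. Over the 16 tumors, log2 CPM of C3 was related to the summed level of 10 macrophage markers (r = 0.640, permutation p = 0.00757, adjusted over 3 such relations 0.0227; rho = 0.647, permutation p = 0.00813, adjusted 0.0244). Without the 2 tumors with C3 farthest from its median, S1-12 and S2-11, r was 0.404, and it was 0.667 within S1 tumors and 0.601 within S2 tumors. The corresponding relations of CD34 with endothelial markers (r = 0.320, permutation p = 0.223, adjusted 0.335; rho = 0.315) and of CFD with adipocyte markers (r = 0.243, permutation p = 0.366, adjusted 0.366; rho = 0.244) did not pass. These 3 relations were chosen after the data were seen.

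GSN encodes gelsolin, which severs and caps actin filaments in the cytoplasm and clears actin from plasma. FS fell into a low pair, S2-06 with 71.6 CPM and S1-12 with 237, and a higher pair, S1-02 with 999 and S1-11 with 1263. PNST ran from 528 CPM (S2-07) over 1517 to 2494 (S1-03), and PWT from 365 (S2-03) over 685 to 1258 (S2-11). Only the low pair of FS lay below every tumor of the other types. The log2 fold change was -0.74 in FS against the rest (SE 0.58, edgeR adjusted p = 0.460) and 0.97 in PNST against the rest (SE 0.46, adjusted p = 0.319). The FS value was -1.30 without S1-11, -0.48 without S1-12, -0.36 without S2-06, -1.29 with S1 or S2 as a covariate and -3.27 within S2 tumors, which hold a single FS, and the PNST value was 0.62 with the covariate and -0.33 within S2 tumors, where S2-07 is the only PNST. None of these was called.

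**Figure D3:**
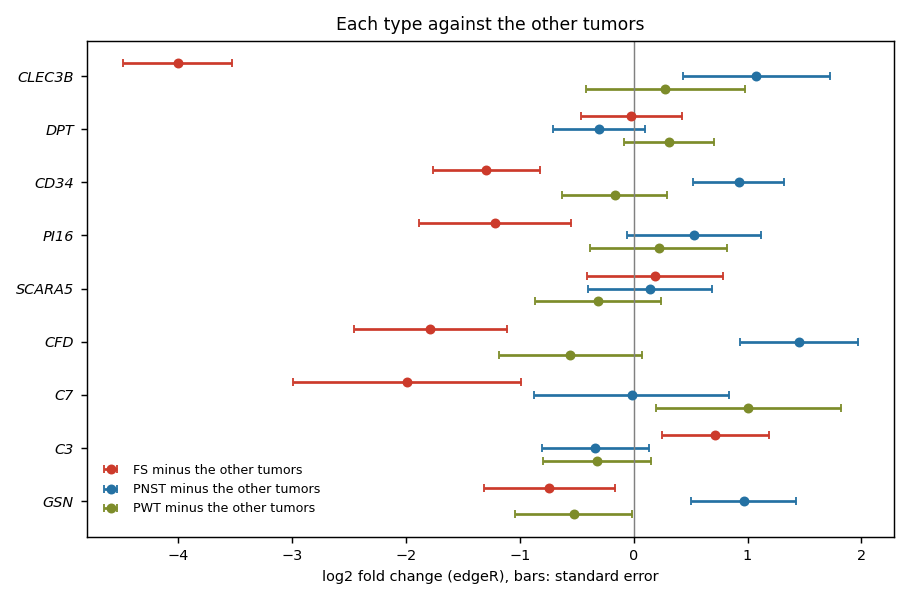
Log2 fold change from edgeR (x axis, points, with SE as bars) of the 9 genes for FS, PNST and PWT, each against all other tumors. In FS, CLEC3B at -4.01 stands off from the other 8 genes, whose values lie between -1.99 and 0.72; the PNST and PWT values lie between -0.56 and 1.45.

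In the pairwise comparisons, the order of the mean levels was FS, PWT, PNST in CLEC3B, CD34, PI16, CFD and GSN, but no neighbouring pair of types in that order differed by a call in CD34, PI16, CFD or GSN. PNST and PWT differed in 0 of the 9 genes (edgeR, 0 of the 9 at an unadjusted p-value under 0.05; 0 by DESeq2 and limma voom). The widest gap between them was that of CFD, with a log2 fold change of 1.09 (SE 0.55, edgeR adjusted p = 0.282). PNST against the rest and PWT against the rest also gave 0 calls among the 9 genes, with 2 and 0 of them at an unadjusted p-value under 0.05, and 0 calls by DESeq2 and limma voom.

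Over the 9 S1 tumors, the median coefficient of variation of CPM between runs of a tumor was 3.55% for GSN, 4.62% for CD34, 8.36% for PI16, 10.0% for DPT, 10.1% for SCARA5, 14.5% for C3, 17.1% for CFD, 18.3% for CLEC3B and 21.6% for C7. Between the same tumors it was 45.5% (DPT) to 145% (C7), and for each gene it was above this median. In the shallow S1-12, however, the runs spread more widely than the tumors did for CLEC3B (173% between runs, 81.9% between tumors), CFD (173% and 73.1%) and C3 (103% and 73.6%). The 2 FS that pulled most genes down differed in depth. S1-12 had 507728 counts on genes, and its CLEC3B, CFD and C3 rested on 1, 4 and 9 counts, while S2-06 had 1721835 counts and still held 3 counts of CFD and 0 of C7. The part of depth in the values of S1-12 was not tested.

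How the genes moved together was examined over the 16 tumors with log2 CPM. Since FS stood apart in CLEC3B, pairs with CLEC3B were taken over the other 12 tumors only. Of the 28 pairs without CLEC3B, 25 had a positive Pearson's r and 3 a negative one, with a median of 0.310. After Benjamini-Hochberg adjustment over all 36 pairs, 3 of the 28 had a permutation p under 0.05 by Pearson's r and 1 by Spearman's rho.

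The pair that passed by both was CFD and GSN (r = 0.905, permutation p = 2.0e-05, adjusted 0.00072; rho = 0.824, permutation p = 0.00020, adjusted 0.0072). It was 0.740 without S1-12 and S2-06, 0.770 within S1 tumors, 0.979 within S2 tumors, 0.800 without FS and 0.873 after the mean of each type was removed. The correlation was thus positive in each of these settings. The S1 value includes S1-12, which had 4 counts of CFD, and r within S1 was not computed without that tumor. Nor was it computed within any single type, since the value after removal of type means pools the types. SCARA5 and CFD (r = 0.707, permutation p = 0.00313, adjusted 0.0378; rho = 0.368, permutation p = 0.161) rested on S1-12 and S2-06, without which r was 0.200. CLEC3B and PI16 gave r = 0.720 over the 12 tumors that are not FS (permutation p = 0.00788, adjusted over the 8 CLEC3B pairs 0.0630; rho = 0.552, permutation p = 0.0666), and 0.451 without S1-05 and S2-03. Among the pairs without CLEC3B, the lowest values were those of DPT and C7 (r = -0.246, permutation p = 0.345; rho = -0.138) and of C7 and C3 (r = -0.0911, permutation p = 0.733; rho = 0). Outside FS, CLEC3B gave r = -0.324 with C7 (permutation p = 0.301, rho = -0.343), its lowest, and -0.0549 with C3 (permutation p = 0.865, rho = -0.182), and none of these 4 passed. The value of CLEC3B with C7 changed sign by prefix, with r = 0.524 in the 6 S1 tumors outside FS and -0.912 in the 6 S2 tumors.

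**Figure D4:**
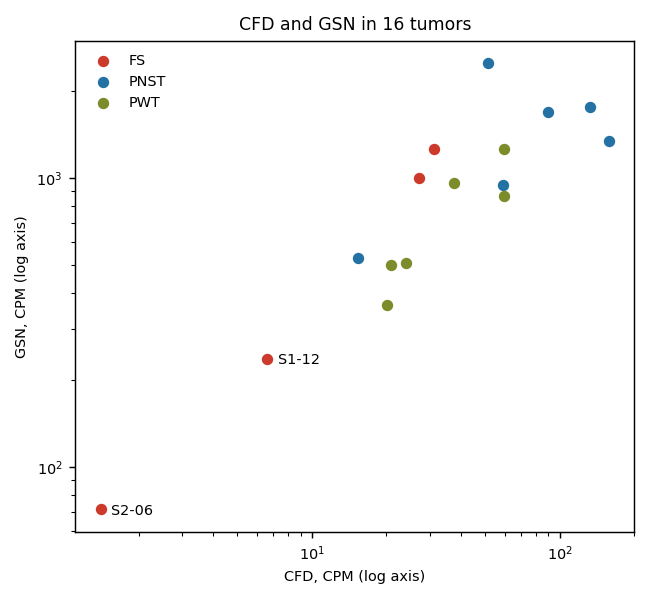
CPM of CFD (x) and GSN (y) in the 16 tumors, both on log axes, colored by molecular type. The levels lie along a rising band (r = 0.905 on the log2 scale), with S2-06 and S1-12 at its low end and 5 of 6 PNST in its upper part.

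The genes whose levels over the 16 tumors were most like those of each member were taken from all 15407 other genes, by Pearson's r of log2 CPM, as a description. For CLEC3B these were RXRG (r = 0.944), EXOC6B (0.937) and ABLIM1 (0.932), with 0.648, 0.850 and 0.666 over the 12 tumors that are not FS. For CFD they were PNPLA2, which encodes adipose triglyceride lipase (0.940), DUSP28 (0.908) and GSN itself, with 0.866, 0.904 and 0.800 over those 12 tumors. For GSN they were CFD, GNAZ (0.883) and DDA1 (0.881), with 0.800, 0.903 and 0.720 over them. DPT was closest to ERGIC2 (0.847), PLXDC1 (0.837) and MPPE1 (0.819), with 0.786, 0.845 and 0.739 without FS. CD34 was close to RANBP9 (0.843) and LOC102152103 (0.818), with 0.803 and 0.698 without FS. PI16 was closest to CYP1B1 (0.887), LOC119876002 (0.863) and LOC111093771 (0.856), with 0.526, 0.668 and 0.786 without FS. For SCARA5 they were LOC111095988 (0.868), UNC93B1 (0.863) and the complement protease C1R (0.824), with 0.491, 0.725 and 0.584 without FS. C7 was closest to BTRC (0.794), LOC111097135 (0.789) and LOC119867333 (0.771), with 0.758, 0.769 and 0.752 without FS. C3 was closest to ACO1 (0.874), CES2 (0.872) and CACNA1A (0.872), with 0.790, 0.856 and 0.804 without FS.

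The 9 genes were set beside a wider list of 35 other transcripts of resident fibroblasts, 31 of which could be tested. This list and those below were chosen with earlier results of these data known, so their shares are given as a description. In FS, 7 were lower and 2 higher (29.0% called, against 9.46% of all genes), with a median log2 fold change of -0.62. The lower ones with the smallest p-values were TNXB, which encodes the matrix protein tenascin X (-3.27, SE 0.45, edgeR adjusted p = 0.000287), and 3 lipid-transporter-like genes, ABCA9 (-2.84, adjusted p = 0.000553), ABCA6 (-2.56, adjusted p = 0.00348) and ABCA8 (-2.14, adjusted p = 0.00614). In each of these 4 genes the FS lay below all 12 other tumors, as in CLEC3B and in 1.82% of all genes. The 4 were named for their small p-values, which favors such a gap. TNXB was 153 to 358 CPM in FS against 677 to 3944, and ABCA9 was 16.4 to 113 against 328 to 939. For ABCA8 the gap was narrow, with 346 CPM in the highest FS against 366 in the lowest other tumor. The other lower genes, named outside the naming rule after their values were seen, were CXCL12, SEMA3C and NOVA1. TNXB and ABCA9 are among the FS genes that the study itself picked from these tumors, so their direction is not independent evidence.

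The 2 higher genes of the resident list were COL15A1, a collagen of the basement membrane zone (2.60, SE 0.39, edgeR adjusted p = 0.000531), and DPP4, a surface peptidase (2.85, SE 0.81, adjusted p = 0.0307; outside the naming rule). COL15A1 was 589 to 729 CPM in S1-11, S1-12 and S2-06 and 64.4 in S1-02, against 45.6 to 189 in the other types. DPP4 was 790 CPM in S1-02 alone and 21.3 to 98.7 in the other 3 FS, inside the 2.68 to 124 CPM of the other types. No gene of the list was called in PNST against the rest, PWT against the rest or PNST against PWT by edgeR (9, 7 and 7 of 31 were at an unadjusted p-value under 0.05). FS against PNST gave 1 higher (COL15A1) and 7 lower (25.8% called, against 7.13% of all genes). FS against PWT gave 1 higher (COL15A1) and 5 lower, TNXB, ABCA9, ABCA6, ABCA8 and CXCL12 (19.4% called, against 11.2% of all genes). The 7 lower genes of FS against the rest were 4 without S1-12, where 1299 of all 15377 genes were called. With histological groups they were 0, where 205 of all 15408 genes were called.

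A list of 27 genes of activated fibroblasts, 26 of them tested, had 10 higher and 0 lower in FS, with a median of 1.12. That is 38.5% called, against 9.46% of all genes. Those with the smallest p-values were GREM1, a BMP antagonist (4.55, SE 0.75, edgeR adjusted p = 0.00110), the fibrillar collagen gene COL11A1 (5.63, SE 0.97, adjusted p = 0.00139), the cadherin gene CDH11 (1.86, adjusted p = 0.0103), the collagen receptor gene ITGA11 (2.16, adjusted p = 0.0103) and ACTA2, smooth muscle actin (2.40, adjusted p = 0.0198). Their highest levels came from different FS: GREM1 was 249 CPM in S1-02 and 3.29 in S1-12, whereas COL11A1 was 512 CPM in S1-12, 232 in S1-11 and 1.87 in S2-06. FS overlapped with the other types in all 10. The count was 3 without S1-11, 2 by limma voom, 2 with histological groups, 5 without S1-10 and S2-08 and 3 within S1 tumors. In the same order, the calls over all genes were 911 of 15227, 1227 of 15408, 205 of 15408, 1028 of 15102 and 825 of 14371. FS against PNST gave 3 higher genes, GREM1, COL11A1 and SULF1 (11.5% called, against 7.13% of all genes). FS against PWT gave 10 (38.5% called, against 11.2% of all genes). In PWT against the rest 1 gene was lower, COL1A1 (-2.03, SE 0.52, edgeR adjusted p = 0.0458), or 3.85% called, against 2.12% of all genes. In PNST against the rest and in PNST against PWT 0 were called (edgeR, 5 and 4 of 26 at an unadjusted p-value under 0.05).

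**Figure D5:**
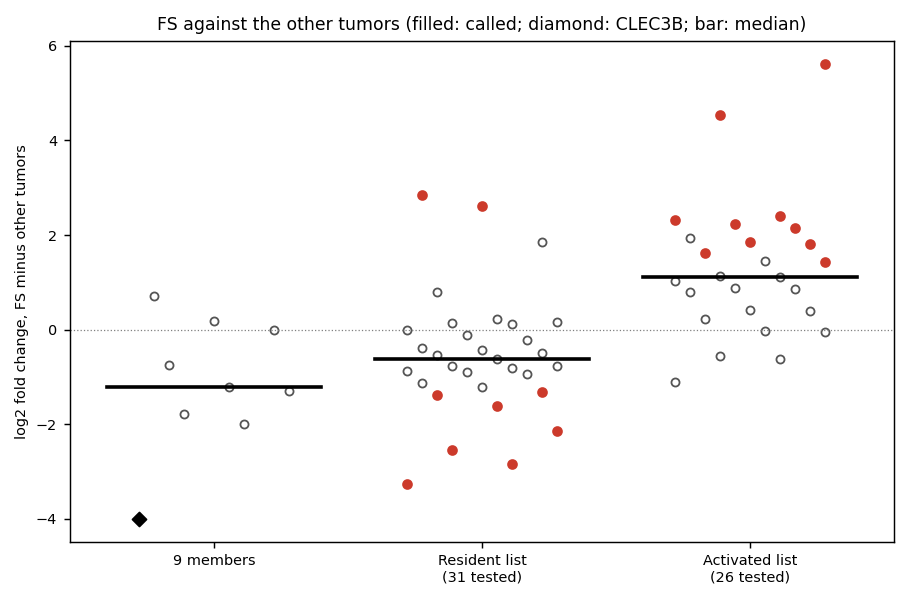
Log2 fold change of FS against the other tumors for the 9 genes and for the tested genes of the resident and activated lists (points; filled red points were called by edgeR, the black diamond is CLEC3B, which is shown as a description, and bars are medians). The medians are -1.22 (-0.98 for the 8 genes without CLEC3B), -0.62 and 1.12.

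Of 29 other complement genes, 26 were in the table and 17 had enough counts for a test. In FS, 3 were higher and 1 lower (23.5% called, against 9.46% of all genes). CLU, which encodes clusterin, an inhibitor of the membrane attack complex (4.05, SE 0.75, edgeR adjusted p = 0.00233), C2 (2.05, SE 0.49, adjusted p = 0.0119) and C1QB (1.50, SE 0.47, adjusted p = 0.0488) were higher in FS. These 3 were highest in S1-02, with 1140, 246 and 212 CPM, and without that tumor 0 complement genes were higher and 1 was lower. S1-02 also had the highest macrophage sum of all tumors, 1493 CPM, and the part of macrophages was not tested. In FS against PNST, CLU was higher and 1 gene was lower (11.8% called, against 7.13% of all genes). In FS against PWT, CLU and C2 were higher and 1 gene was lower (17.6% called, against 11.2% of all genes). The other 3 comparisons called 0 complement genes by edgeR. At an unadjusted p-value under 0.05 were 2 of 17 in PNST and in PWT against the rest and 1 in PNST against PWT.

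Of the 7 other genes of the gelsolin family, 5 were tested and 0 were called in any of the 6 comparisons by edgeR, and at most 1 was at an unadjusted p-value under 0.05. Their median in FS against the rest was -0.06. SVIL, which encodes supervillin, was at -0.06 (SE 0.35) and CAPG, a capping protein, at 0.33 (SE 0.43).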

How the data were processed

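Total RNA from formalin-fixed sections was depleted of ribosomal RNA and sequenced on the Ion Proton platform. The authors aligned reads with STAR to the dog genome ROS-canfam-01 and deposited raw counts of reads per gene from htseq-count, without normalization. Versions and the strand setting are not given in the sources used here, so genes that overlap others, or have near copies, are uncertain. Of all reads listed, 22.9% to 30.6% per tumor were on genes, and the 5 rows of unassigned reads were left out.

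The 34 run columns were summed into 16 tumors, and groups follow the molecular identity in the labels. CPM used library totals scaled with TMM. Tests used edgeR 4.0.16 (quasi-likelihood, TMM, a minimum of 10 counts in 4 or more tumors) for each type against the others pooled, as the study's design does, and for the 3 pairs in a 3-group fit. Approximate 95% intervals of log2 fold changes are the estimate ± 1.96 SE. Correlations used log2 CPM (prior count 2) and 100000 permutations, two-sided, in Python 3.11.15. DESeq2 1.42.0 and limma 3.58.1 voom were alternatives. The edgeR step was tested on simulated data. Levels were not compared between genes, since gene lengths were not used.

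The members and the gene lists were chosen with earlier results of these data known. Named were all 9 members, the 5 called genes with the smallest p-values per list and comparison, the 3 genes most like each member, and the 3 highest and 3 lowest correlations. Some genes that meet this rule are not reported here.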

Additional observations from a re-analysis of the deposited data

Results flagged for a closer look

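Within each type, the highest and lowest tumor of each gene was compared with its neighbours by Dixon's test, on CPM without a log. There were 27 groups of a gene and a type, of which chance flags about 1 in 20 if levels are normally distributed. That was not checked for CPM. A tumor far from the others was found in 2, which is near that rate, so both are given as a description. PI16 in FS was 602 CPM in S1-11, against 26.3 to 71.6 in the other 3 FS. C7 in PNST was 292 CPM in S1-10, against 10.5 to 76.6 in the other 5 PNST, and S1-10 is the tumor of that group whose histological diagnosis was PWT.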

How the results depend on the processing

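Up to 30 alternatives per comparison were run: 16 that each left out 1 tumor and 14 others. Of 1620 log2 fold changes of the 9 genes under them, 0 turned sign with a call, 6 lost a call (all CLEC3B in comparisons with FS, under histological groups or S2 tumors alone), 17 gained one and 104 turned sign without a call. The counts that follow include CLEC3B, whose FS values are a description, so only the added genes bear on a test. In FS against the rest, with 1 gene called, DESeq2 called 3 (CLEC3B, CD34, CFD), limma voom 2, a prefix term 2 and histological groups 0. In FS against PNST, upper quartile factors, library totals alone and a prefix term called 2, DESeq2 and no filter 3, and histological groups 0. In FS against PWT, a prefix term called 2 and histological groups 0. Over all 15408 genes, these 3 comparisons called 1457, 1099 and 1726 in the main fits and 205, 0 and 5 with histological groups. The 0 with histological groups is thus not particular to the 9 genes. A prefix term called 1457, 1020 and 895, and DESeq2 2090 of 21352, 1774 of 20068 and 2453 of 20068. S2 tumors alone hold a single FS, so no count is given for them. With 1 tumor left out, the FS comparisons called 1 to 2. Leaving out S1-11 added PI16 in each, and leaving out S1-03 added CD34 and S2-07 CFD in FS against PNST. The other 3 comparisons gave 0 throughout. The cause was not tested.

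The correlation of CFD and GSN was 0.740 to 0.979 under its alternatives (0.770 within S1, 0.800 without FS). That of SCARA5 and CFD was 0.368 by rank, 0.200 without its farthest tumors, 0.539 within S1 and 0.405 without FS. That of C7 and C3 was 0.249 within S1.

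No paired analysis was possible because each tumor belongs to 1 group and the labels give no number that ties tumors of different groups together. With 4 FS, and with 1 count worth 1.64 CPM in S1-12, small differences in low genes were not detectable at this depth.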
